A study of Homo sapiens with 22 samples.

Results

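The SETD2 knockout clone KO1 was compared with the wild-type (WT) cells it was derived from. The comparison used 4 of the 22 RNA-seq libraries of the study, chosen by their labels, with 2 of KO1 and 2 of WT. The cells were RPTEC, human renal proximal tubule epithelial cells that were immortalized with hTERT, the catalytic subunit of telomerase, and are kept under G418 selection. KO1 was made with Cas9 and a guide to SETD2, both groups were kept in medium with 2% serum, and neither received TGF-β. KO1 is 1 clone, so changes that came with the guide and changes that came with the choice of that cell cannot be told apart in KO1 against WT alone. A second clone from the same guide, KO2, also in 2% serum with 2 libraries, was therefore set beside it. The labels do not say whether the replicates of a group were separate cultures. The p-values measure the spread between replicates, pooled over all 22 libraries of the study, and this spread may be technical. Replicates of WT and of KO1 were less alike than those of the other groups, so p-values of KO1 against WT may be too small.

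SETD2 is the methyltransferase that places the third methyl group on lysine 36 of histone H3 (H3K36me3). This mark is laid down over the bodies of transcribed genes and read by some DNA methyltransferases and by splicing and repair factors. SETD2 is a tumor suppressor of clear cell renal cell carcinoma. In an epithelial to mesenchymal transition (EMT), epithelial cells lose junction and polarity proteins and gain matrix, protease and cytoskeletal genes of mesenchymal cells, under control of the ZEB, SNAI, TWIST and PRRX transcription factors.

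The guide sequence is shown because it marks the one place where KO1 was designed to differ from WT. It was found once in SETD2 on GRCh38, on the plus strand at chr3:47122997-47123016, while SETD2 (ENSG00000181555) is read from the minus strand of chr3:47016428-47164113. The match lies in coding sequence, in exon 3 of 21, which spans 4367 bases from 47120182 to 47124548. The guide is given first, in lower case with its PAM in capitals, and then the reference around it (chr3:47122957-47123059, plus strand) with the guide match in capitals.
SETD2 guide and PAM: tagaatatgatgaccctcgtCGG
SETD2 exon 3 around the site: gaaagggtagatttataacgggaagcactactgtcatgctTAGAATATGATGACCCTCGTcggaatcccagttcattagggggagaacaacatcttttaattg

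Levels are normalized counts obtained by inverting the deposited log2 values, and are given for WT replicates 1 and 2 and then for KO1 replicates 1 and 2. Changes are differences of log2(normalized count + 1), KO1 minus WT, with the standard error (SE). Adjusted p-values come from limma over 14585 genes, and a gene was called, or said to rise or fall, where the adjusted p was under 0.05 and the log2 change passed 1 in either direction. SETD2 itself stood at 1852 and 2061 in WT and at 1046 and 1130 in KO1. Both KO1 libraries lay below both WT libraries (log2 change −0.84 ± 0.07 SE, adjusted p = 1.3e-07), but the size of the difference was under the threshold for a call. When all libraries were instead given the same total, the log2 change was −1.25 and SETD2 was called.

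The libraries held totals of 12164417 to 16758645 normalized counts and 14082 to 15614 genes above 0, the fewest in KO1 replicate 2. A depth of about 14000000 to 18800000 reads was inferred from the spacing of low values. It is uncertain, as only 18.4% to 29.8% of low values lay at that spacing. The most abundant gene took 5.37% and 2.39% of the total in WT and 14% and 15.1% in KO1. Replicates were less alike than those of the other groups. The median absolute log2 difference between them, over genes with at least 1000 in both, was 0.159 in WT and 0.147 in KO1, against 0.0605 to 0.108 elsewhere. Of genes with at least 1000 in both replicates, 27 differed by over 2 times in WT and 8 in KO1. The WT libraries differed in matrix genes, among them TGFBI (12164 and 896) and COL4A1 (5934 and 125). They also differed in other genes, such as GAPDH and JAG1, whose levels are given below. In KO1 replicate 2, 312 genes were listed at 0 that had over 20 normalized counts in its duplicate, and 204 in KO1 replicate 1, against 84 to 98 in the WT and KO2 libraries. HPRT1, which nearly every cell expresses, was listed at 0 in both KO1 libraries and at 32.3 and 196 in WT, so a 0 in KO1 is given here only as a listed value. A supplementary table of the study heads the columns of the 2 clones the other way round: over 1997 genes its KO1 columns match the libraries labelled KO2 and its KO2 columns those labelled KO1, with a correlation of centred ranks of 0.999. The labels of the libraries were followed.

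The labelled cell type was checked against 12 proximal tubule markers. PAX8, a transcription factor of renal epithelium, was abundant in every library (2322 and 3743 in WT, 6382 and 6561 in KO1). Another 6 were below the minimum for testing (LRP2, SLC34A1, SLC5A2, SLC22A6, SLC22A8 and HNF4A), and of these all but SLC34A1, which was at 2.24 and 2.09 in WT, were listed at 0 in all 4 libraries. The lineage factor was thus detected in both groups, while these markers of mature proximal tubule were at or near 0 in WT as well as in KO1. PTPRC, the pan-leukocyte marker, was at 0 and 0 in WT and at 4.08 and 0 in KO1, and PECAM1, an endothelial marker, at 0 in 3 of the 4 libraries.

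Of 14585 genes tested, 1744 rose (12.0%) and 1908 fell (13.1%) in KO1, and the median log2 change over all genes was 0.00. Another 2149 genes had an adjusted p under 0.05 with a change below the fold. When all libraries were given the same total, the median of all genes moved to −0.39, and 1161 genes rose and 3006 fell. Changes are therefore read relative to the median gene. With the 4 libraries alone in the limma fit 1002 rose and 910 fell, and the adjusted p of BDKRB2, for example, was 0.00643 in place of 7.9e-15. Among 6525 genes with at least 100 normalized counts in each of the 4 libraries 650 rose and 592 fell. Genes named below were chosen by the size and stability of their change or after their values were seen. Where groups are said not to overlap, that follows largely from this choice and adds no support. The plot of list counts shows which gene groups carried these calls.

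**Figure D1:**
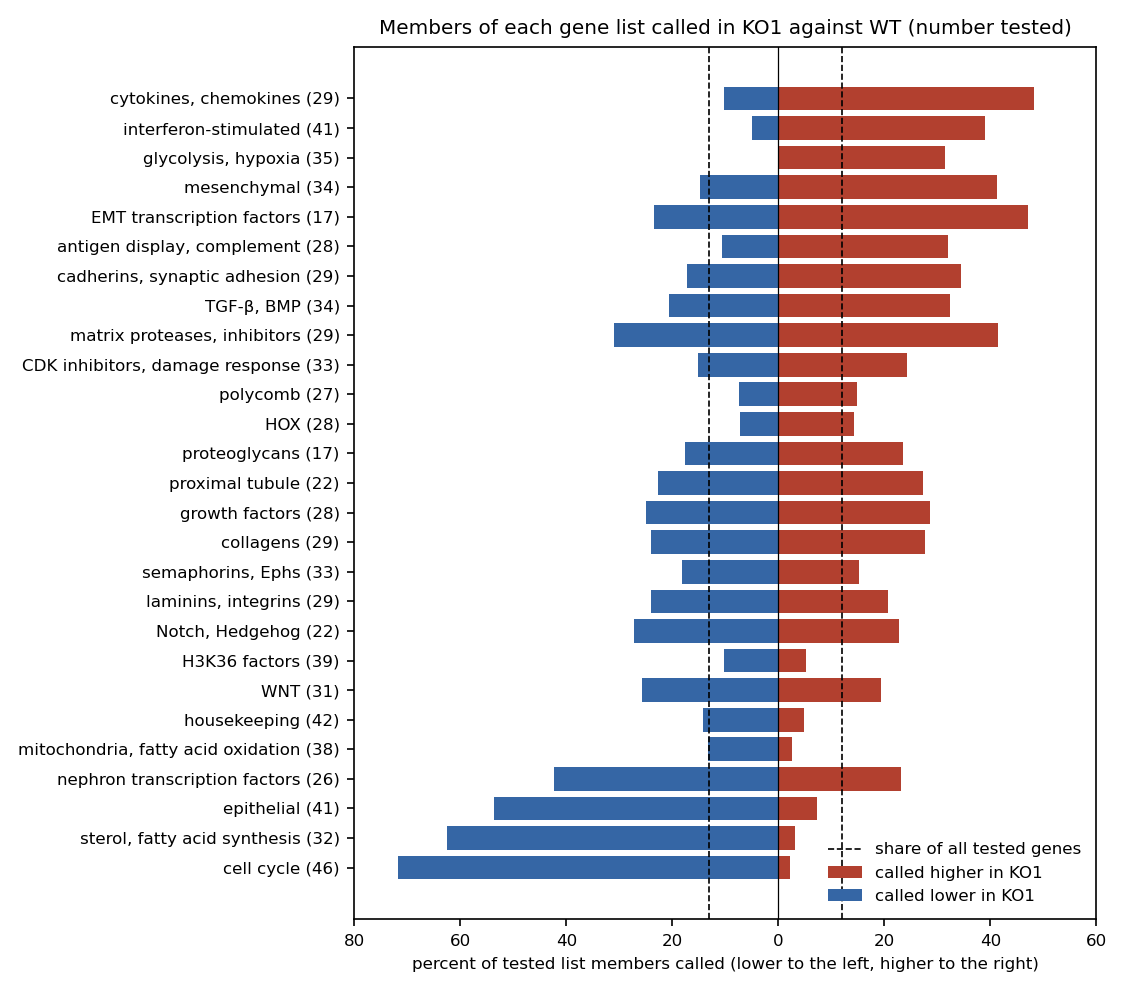
Share of the tested members of each gene list called higher (to the right) and lower (to the left) in KO1 against WT, in percent, with the share over all 14585 tested genes as dashed lines (12.0% and 13.1%). Cell cycle (71.7%), sterol (62.5%) and epithelial genes (53.7%) had the highest shares of falls among the lists drawn, and cytokine genes (48.3%) and EMT transcription factors (47.1%) the highest shares of rises.

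Several genes went from listed absence to abundance. CH25H, which makes 25-hydroxycholesterol, was at 0 in both WT libraries and at 2301 and 2167 in KO1 (adjusted p = 1.0e-08). LDB2, a cofactor of LIM-domain transcription factors, was at 0 in both WT libraries and at 1517 and 1535 in KO1 (adjusted p = 3.2e-06). OR12D2, an olfactory receptor gene, was at 0.844 and 0 in WT and at 1933 and 2565 in KO1 (adjusted p = 8.1e-10). In each case both KO1 libraries stood far above both WT libraries. In the other direction DMKN, the epidermal protein dermokine, was at 1174 and 1248 in WT and at 1.14 and 0 in KO1 (adjusted p = 3.1e-09).

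Because a fold against 0 cannot be sized, the largest changes were also taken among genes with at least 100 normalized counts in each library, a rule added after the values were seen. SLC7A2, a transporter of arginine and other cationic amino acids, stood at 265 and 147 in WT and at 27921 and 30444 in KO1 (log2 change 7.20 ± 0.17 SE, adjusted p = 2.4e-13). BDKRB2, the bradykinin B2 receptor, stood at 202 in both WT libraries and at 21779 and 21034 in KO1 (6.72 ± 0.12 SE, adjusted p = 7.9e-15). TGM2, a transglutaminase that crosslinks matrix proteins, stood at 248 and 402 in WT and at 14890.4 and 14904 in KO1 (5.56 ± 0.20 SE, adjusted p = 1.4e-11). These 3 genes did not overlap between groups, which follows from their choice as the largest changes, and the gap was many times the spread between duplicates. The falls under the same rule included PEG10, an imprinted gene derived from a retrotransposon, which stood at 11034 and 10200.0 in WT and at 342 and 334 in KO1 (−4.97 ± 0.11 SE, adjusted p = 1.2e-13). ABCB1, the drug efflux pump P-glycoprotein of the apical tubule membrane, fell by 4.01 ± 0.16 SE on the log2 scale, from 2146 and 2767 to 137 and 165 (adjusted p = 4.4e-11). GUCY1B1, the beta subunit of the nitric oxide receptor guanylate cyclase, fell by 3.71 ± 0.13 SE (1721 and 1959 in WT, 139.7 and 139 in KO1, adjusted p = 8.0e-12). HMGB2, a chromatin protein of proliferating cells, fell by 4.48 ± 0.13 SE (adjusted p = 2.3e-12).

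Epithelial genes were mostly lower in KO1. Of 41 tested members of an epithelial list, 22 fell (53.7%, against 13.1% of all genes) and 3 rose, with a median log2 change of −1.88. EPCAM, an adhesion molecule of simple epithelia, stood at 3050.0 and 2764 in WT and at 296 and 218 in KO1 (−3.51 ± 0.12 SE, adjusted p = 5.7e-12). Both KO1 libraries were about an order of magnitude below both WT libraries. TSPAN1, a tetraspanin of epithelial surfaces, stood at 414 and 555 in WT and at 26.2 and 17.9 in KO1 (−4.40 ± 0.39 SE, adjusted p = 3.5e-07). Keratins KRT8 and KRT19, intermediate filaments of simple epithelium, also fell (log2 changes −1.92 ± 0.07 SE and −1.48 ± 0.09 SE, adjusted p = 1.1e-11 and 3.1e-09). KRT18, the partner of KRT8, had a change of 0.01 ± 0.58 SE and was not called. KRT8 in KO1 was still at 4558 and 3952 against 15741 and 16325 in WT.

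The falls included genes of tight junctions, desmosomes and polarity complexes. For tight junctions, the scaffold TJP1 fell (−1.74 ± 0.14 SE, adjusted p = 1.0e-07), and occludin (OCLN) fell from 86.2 and 104 to 19.2 and 37.4 (adjusted p = 0.00365). Of the claudins, which set paracellular permeability, CLDN16 stood at 1022 and 1177 in WT and at 98.8 and 45.3 in KO1 (−4.01 ± 0.36 SE, adjusted p = 4.8e-07). CLDN4 and CLDN2 fell (−2.50 ± 0.33 SE and −3.17 ± 0.27 SE, adjusted p = 2.2e-05 and 2.6e-07), while CLDN1 rose from 16.5 and 9.04 to 33.3 and 37.6 (adjusted p = 0.0309). Desmosomal DSP and PKP2 fell (−2.01 ± 0.25 SE and −2.38 ± 0.16 SE, adjusted p = 1.2e-05 and 1.7e-08). The polarity genes PATJ and LLGL2 fell (−1.97 ± 0.18 SE and −3.48 ± 0.34 SE, adjusted p = 4.5e-07 and 1.2e-06). CDH16, the kidney-specific cadherin, did not pass the test (123 and 170.0 in WT, 44.6 and 161 in KO1, adjusted p = 0.566). ESRP2, which controls epithelial splicing, fell from 511 and 753 to 16.8 and 40.6 (adjusted p = 4.6e-08). OVOL2, a repressor of mesenchymal genes, was at 14.6 and 15.5 in WT and at 0 in both KO1 libraries (adjusted p = 4.0e-04). DSC2, a desmosomal cadherin, also rose, but its log2 change was 3.10 if WT replicate 1 was left out and 0.95 if replicate 2 was, and the epithelial rises were 1 in place of 3 without WT replicate 2 or without KO1 replicate 2. ESRP2 moved by −3.90 if KO1 replicate 1 was left out and −5.13 if replicate 2 was, and CLDN1 was not called with the 4 libraries alone (adjusted p = 0.207). Epithelial genes other than CLDN16, OVOL2, TSPAN1 and MUC1 were named after their values were seen.

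**Figure D2:**
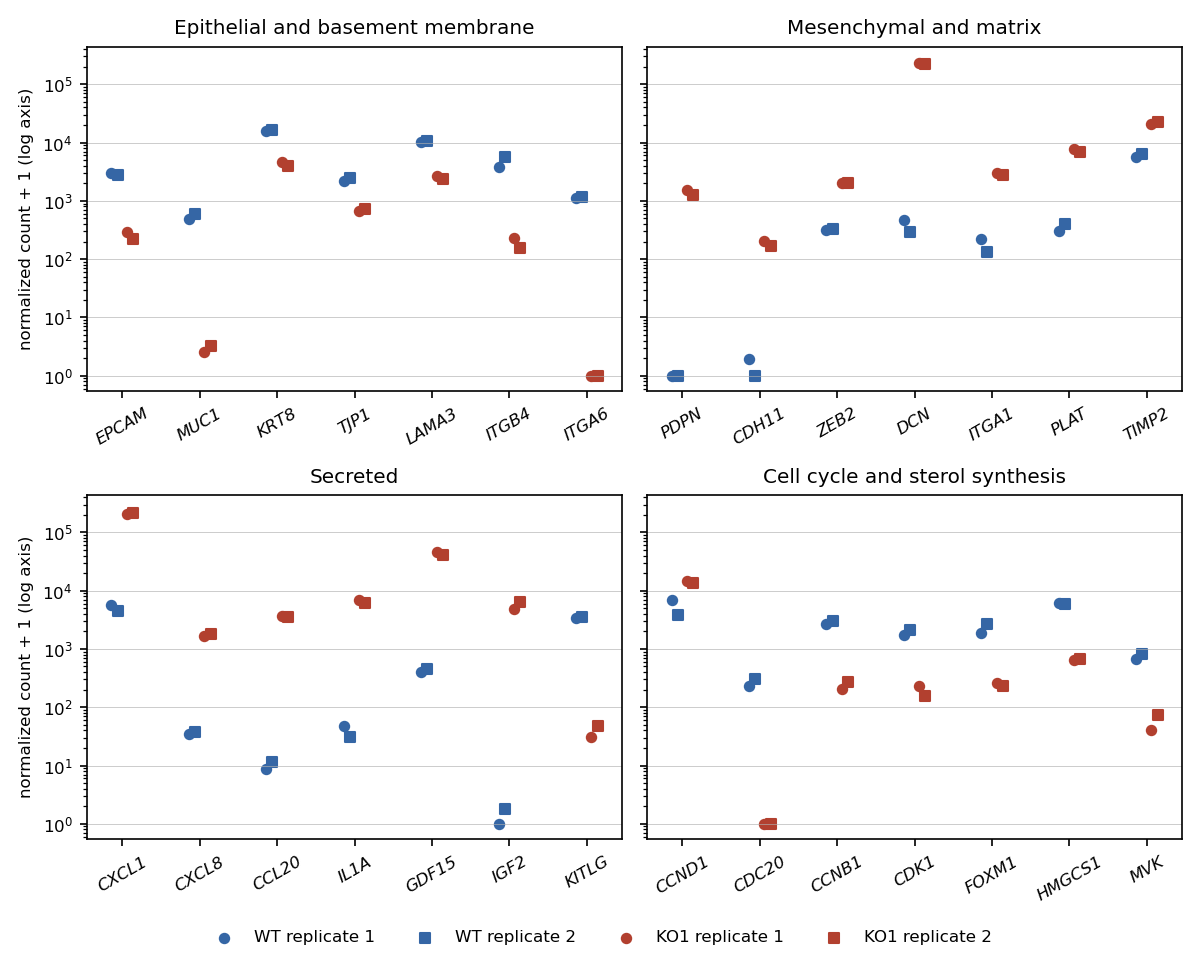
Normalized count + 1 in each WT (blue) and KO1 (red) library on a log axis, circles for replicate 1 and squares for replicate 2, for 7 genes in each of 4 panels. In every panel the KO1 points lie on one side of the WT points for each gene, for example CXCL1 at 209253 and 212269 in KO1 against 5689 and 4502 in WT. The genes drawn were chosen with results of these data known.

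Proximal tubule genes moved both ways. Of 22 tested members 6 rose (27.3%) and 5 fell (22.7%), with a median of −0.11, and 16 more were below the minimum. FOLR1, the folate receptor of the tubule brush border, was at 1486 and 1639 in WT and listed at 0 in both KO1 libraries (adjusted p = 8.1e-11). SLC17A1, a sodium phosphate cotransporter, was at 192 and 208 in WT and at 0 in both KO1 libraries (adjusted p = 9.1e-09). ASS1, which makes argininosuccinate in the renal synthesis of arginine, rose from 80.8 and 50.8 to 1159 and 989 (4.04 ± 0.24 SE, adjusted p = 3.6e-09). The groups did not overlap for any of these genes, which follows from their choice. CUBN, the endocytic receptor cubilin, rose from 34.6 and 13.9 to 333 and 153 (adjusted p = 0.0145). CUBN was not called with the 4 libraries alone (adjusted p = 0.0648), where 1 member rose and 4 fell.

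Among 26 tested transcription factors of the nephron lineage 11 fell (42.3%) and 6 rose (23.1%), with a median of −0.93 (4 and 14 with the same total). MECOM, expressed along the nephron, fell by 1.14 ± 0.10 SE (1479 and 1346 in WT, 625 and 650.1 in KO1, adjusted p = 2.3e-07). LHX1, needed for the early nephron, was at 9.7 and 14.5 in WT and at 0 in KO1 (adjusted p = 6.4e-04). In contrast, EYA1 and OSR1, genes of the metanephric mesenchyme, were listed at 0 in WT and detected at low levels in KO1. EYA1 stood at 41.8 and 37.7 in KO1 (adjusted p = 1.8e-05) and OSR1 at 19.2 and 19.1 (adjusted p = 0.00887). SALL1, of the same lineage, was already present in WT and rose from 1774 and 2555 to 5564 and 5429.7 (1.37 ± 0.16 SE, adjusted p = 5.7e-06). HOXD11, which patterns the kidney, rose from 376 and 401 to 1419 and 1540.3 (1.93 ± 0.12 SE, adjusted p = 5.2e-09). PAX2, a general marker of renal epithelium, was not called (−0.25 ± 0.15 SE). In the fit of the 4 libraries 5 factors rose and 6 fell. CUBN, SALL1 and PAX2 were named after their values were seen.

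Mesenchymal genes were more often higher than lower. Of 34 tested members 14 rose (41.2%) and 5 fell (14.7%), with a median of 0.92 (12 and 8 with the same total). PDPN, a membrane mucin of mesothelium and fibroblasts, was at 0 in both WT libraries and at 1516 and 1279 in KO1 (adjusted p = 3.0e-12). CDH11, the cadherin of mesenchymal cells, was at 0.938 and 0 in WT and at 202 and 169.7 in KO1 (adjusted p = 3.3e-06). ENG, a TGF-β coreceptor, rose from 7.03 and 3.96 to 86.3 and 159.6 (4.23 ± 0.39 SE, adjusted p = 5.2e-07). None of the 3 overlapped between groups, which follows from their choice. ACTA2, smooth muscle actin, rose from 309.5 and 308 to 739 and 731 (1.25 ± 0.11 SE, adjusted p = 3.7e-07), and LOX, a collagen crosslinking oxidase, rose by 1.66 ± 0.14 SE (adjusted p = 2.4e-07). CDH2, the cadherin usually named with EMT, stood at 942 and 241 in WT and at 55.1 and 245 in KO1 and was not called (adjusted p = 0.674). LOXL1, another oxidase of that family, fell from 298 and 323 to 42.8 and 65.5 (adjusted p = 1.9e-05). ACTA2, LOX and CDH2 were named after their values were seen. Without WT replicate 1 the falls were 3 in place of 5, and in the fit of the 4 libraries 8 members rose and 2 fell.

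Fibroblast markers moved with this list. Of 9 tested, 5 rose (55.6%) and COL3A1 fell (11.1%), against 12.0% and 13.1% of all genes. The rises were DCN, LUM, PDGFRA, THY1 and POSTN. The median was 3.21, or 2.24 with genes at 3 or less in a group set to their bound. The summed level of the list was 12453 and 846 in WT and 236668 and 223519 in KO1. Most of the sum was COL1A1 in WT and DCN in KO1. THY1 stood at 14.3 and 15 in WT and at 203 and 138 in KO1 (3.43 ± 0.37 SE, adjusted p = 2.7e-06). The defining fibrillar collagens did not follow, with COL1A1 at 11919 and 532 in WT and 1042 and 815 in KO1, COL1A2 at 1.24 to 5.26 in the 4 libraries, and COL3A1 at 0 in both KO1 libraries. FAP was below the minimum. LUM, PDGFRA and POSTN rested in size on the WT libraries, with log2 changes of 9.04, 5.55 and 3.92 without WT replicate 1 and of 5.76, 4.35 and 2.49 without WT replicate 2. The fall of COL3A1 was no call in the fit of the 4 libraries (adjusted p = 0.103). In bulk RNA, a change in the share of cells of a type and a change in RNA per cell cannot be told apart, and the part of another cell type in these results was not tested.

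Transcription factors of EMT and mesenchyme were among the lists with the most rises: of 17 tested 8 rose (47.1%) and 4 fell (23.5%), with a median of 1.96, or 1.38 with genes at 3 or less in a group at their bound. TBX3, a T-box factor, stood at 1.31 and 3.89 in WT and at 115 and 84.1 in KO1 (adjusted p = 4.8e-04). TCF4, a bHLH factor that represses CDH1, rose from 60 and 60.1 to 437 and 556 (3.02 ± 0.26 SE, adjusted p = 2.9e-07). TBX15, a factor of limb and skeletal mesenchyme, rose from 67.1 and 88.5 to 474 and 649 (2.83 ± 0.60 SE, adjusted p = 0.00157). All 3 factors were higher in both KO1 libraries than in both WT libraries. FOXF2 rose from 4.97 and 9.5 to 76.5 and 67.6 (adjusted p = 5.5e-06) and TBX18 fell from 27.4 and 26.2 to 3.88 and 4.19 (adjusted p = 0.0109), but neither was called with the 4 libraries alone. KLF8 also fell (adjusted p = 8.3e-04). ZEB1, named after its value was seen, had a change of 0.20 ± 0.09 SE (607 and 575 in WT, 633 and 723 in KO1). In that fit 4 factors rose and 2 fell.

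The basement membrane and its receptors changed by chain. Among 29 tested laminins, nidogens and integrins 6 rose (20.7%) and 7 fell (24.1%), with a median of −0.06. LAMA3, a laminin chain of epithelial basement membranes, fell by 2.03 ± 0.09 SE (10127 and 10657 in WT, 2687 and 2416 in KO1, adjusted p = 1.2e-10), while its partner chain LAMB3 rose from 902 and 656 to 3429.6 and 3512 (2.17 ± 0.21 SE, adjusted p = 1.1e-06). These chains thus changed in opposite directions. Both chains of the laminin receptor of hemidesmosomes fell. ITGA6 stood at 1125 and 1170.0 in WT and was listed at 0 in both KO1 libraries (adjusted p = 3.2e-15), and ITGB4 stood at 3812 and 5723 in WT and at 233 and 153 in KO1 (−4.62 ± 0.31 SE, adjusted p = 1.9e-08). COL17A1, the hemidesmosomal collagen, was at 34 and 34.6 in WT and at 0 in both KO1 libraries (adjusted p = 0.00762). LAMB1 fell from 2346 and 1192 to 146 and 171 (adjusted p = 1.2e-08). By contrast ITGA1, a collagen receptor chain, rose from 224 and 129 to 2958 and 2779 (4.07 ± 0.25 SE, adjusted p = 7.7e-09), and its partner ITGB1 had a change of 0.08. NID2, which links laminin to collagen IV, rose from 12.2 and 10.6 to 216 and 199 (adjusted p = 2.2e-04). LAMA3 and ITGB1 were named after their values were seen. The 4 libraries alone gave 3 rises and 6 falls.

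Of 29 tested collagen genes 8 rose (27.6%) and 7 fell (24.1%), with a median of 0.59. COL6A2, a chain of microfibrillar collagen VI, rose from 2972 and 2089 to 10310.3 and 9693 (2.00 ± 0.12 SE, adjusted p = 3.6e-09). COL6A3 rose from 18.4 and 18 to 90.4 and 98.6 (2.31 ± 0.23 SE, adjusted p = 1.6e-06), though not with the 4 libraries alone, and COL6A1, named after its value was seen, was not called (0.53). COL5A1, a fibrillar chain named after its value was seen, rose from 35.8 and 5.42 to 1873 and 1925 (adjusted p = 1.4e-07). COL4A1, of the basement membrane, was also named after its value was seen and fell from 5934 and 125 to 20.4 and 8.49 (adjusted p = 5.0e-04), and its log2 change was −3.15 if WT replicate 1 was left out and −8.70 if replicate 2 was. That of COL5A1 was 8.21 and 5.69 without the same libraries. The 7 falls became 3 without WT replicate 1 and 4 without KO1 replicate 2, and the 4 libraries alone gave 3 rises and 2 falls. Of 17 tested proteoglycans 4 rose (23.5%) and 3 fell (17.6%), against 12.0% and 13.1% of all genes. With the same total 3 rose and 4 fell. The heparan sulfate proteoglycan SDC2 fell from 1163 and 1534 to 364 and 173 (−2.41 ± 0.23 SE, adjusted p = 7.6e-07), and GPC2 from 24 and 16.6 to 1.23 and 0 (adjusted p = 0.00325). SPOCK3 was at 0 in both WT libraries and at 14.8 and 34.2 in KO1 (adjusted p = 8.2e-04).

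Matrix proteases and their inhibitors were called often in both directions. Of 29 tested 12 rose (41.4%) and 9 fell (31.0%), with a median of 0.21, or −0.05 with the same total. PLAT, tissue plasminogen activator, rose from 300.4 and 395 to 7722 and 6920.1 (4.40 ± 0.12 SE, adjusted p = 1.1e-12). HTRA3, a secreted serine protease, was at 0 in both WT libraries and at 58 and 65 in KO1 (adjusted p = 3.0e-07). SERPINB2, an inhibitor of plasminogen activators, was likewise at 0 in WT and at 59.8 and 44.6 in KO1 (adjusted p = 4.0e-06). These genes were high in both KO1 libraries. MMP9, a gelatinase, was at 1126 and 722 in WT and listed at 0 in both KO1 libraries (adjusted p = 2.2e-07). MMP7, matrilysin, a protease of injured tubule, fell from 183 and 182 to 16 and 12.1 (−3.62 ± 0.45 SE, adjusted p = 1.1e-05). SERPINE2, a protease inhibitor, fell from 5269.6 and 4299 to 849.8 and 1011 (adjusted p = 1.6e-09). MMP14, the membrane protease that activates pro-MMP2, and its cofactor TIMP2 rose by 1.54 ± 0.17 SE and 1.83 ± 0.06 SE (adjusted p = 4.6e-06 and 7.7e-12), both named after their values were seen. The 4 libraries alone gave 10 rises and 3 falls.

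Secreted cytokines and chemokines had the highest share of rises among the lists other than cell type markers. Of 29 tested 14 rose (48.3%, against 12.0% of all genes) and 3 fell (10.3%), with a median of 1.83. The falls were CCL28, CXCL16 and IL18. In the limma fit of the 4 libraries alone 14 rose and 0 fell, with 2 lower at an unadjusted p under 0.05. The promoters of the neutrophil-attracting CXC chemokines are shown because these neighbouring genes on chromosome 4 moved together. Their windows of 60 bases, 44 to 117 bases before the RefSeq start (GRCh38.p14), are given on the strand of the gene with the letters GGAATTTCC, a form of the κB site, in capitals.
CXCL1 (chr4:73869289-73869348, plus): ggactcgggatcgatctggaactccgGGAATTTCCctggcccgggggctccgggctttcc
CXCL2 (chr4:74099239-74099298, minus): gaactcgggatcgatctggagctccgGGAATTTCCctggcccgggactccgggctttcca
CXCL3 (chr4:74038734-74038793, minus): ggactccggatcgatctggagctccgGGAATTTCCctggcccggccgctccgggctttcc
CXCL6 (chr4:73836563-73836622, plus): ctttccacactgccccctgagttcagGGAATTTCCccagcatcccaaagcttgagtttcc
CXCL8 (chr4:73740452-73740511, plus): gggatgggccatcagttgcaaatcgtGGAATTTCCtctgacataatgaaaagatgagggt

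The letters GGAATTTCC, searched on both strands over the 250 bases before the start, occurred in 0.428% of 27305 promoters. They were in 5 of the 12 risen cytokine genes with a promoter in the table (41.7%), in 0 of 6 that were not called and in 0 of 1 that fell. All 5 are the neighbouring chemokine genes shown, and the windows of CXCL1, CXCL2 and CXCL3 are nearly the same. They are therefore not independent promoters, and the shares cannot be compared as if they were. The motif was chosen after the values were seen and a match is not a site of binding. CXCL1 and CXCL3, both CXCR2 ligands, stood at 5689 and 4502 and at 231 and 226 in WT, and at 209253 and 212269 and at 7545 and 7859 in KO1. The log2 changes were 5.38 ± 0.11 SE and 5.07 ± 0.19 SE (adjusted p = 3.6e-14 and 1.9e-11). CXCL8 rose from 33.9 and 36.2 to 1669 and 1804 (5.59 ± 0.16 SE, adjusted p = 1.1e-12), CXCL6 from 32.3 and 64.3 to 2503 and 2075 (adjusted p = 6.5e-07) and CXCL2 from 21.4 and 26.1 to 249 and 252 (adjusted p = 6.9e-08). All 5 were higher in both KO1 libraries by more than the spread between duplicates. CXCL1, CXCL2 and CXCL3 are near-identical paralogs, so the split of reads between them is uncertain.

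Genes outside that cluster also rose. CSF3, the granulocyte colony-stimulating factor, was at 0 in both WT libraries and at 842 and 912 in KO1 (adjusted p = 3.1e-09). CCL20, the ligand of CCR6, rose from 7.71 and 10.3 to 3601 and 3582 (8.50 ± 0.22 SE, adjusted p = 5.5e-13). IL1A, an alarmin of epithelial cells, rose from 45.8 and 29.8 to 6911 and 6150.4 (7.43 ± 0.19 SE, adjusted p = 3.6e-13), and IL24 from 7.29 and 4.64 to 1188 and 1649 (adjusted p = 8.1e-08). The duplicates of these genes lay close together in KO1. CXCL12, which attracts lymphocytes and stem cells, rose from 74.9 and 6.88 to 25801 and 26440.3 (adjusted p = 6.5e-09), with log2 changes of 11.70 if WT replicate 1 was left out and 8.43 if replicate 2 was. IL6, a mediator of the acute phase, rose by 2.69 ± 0.21 SE (adjusted p = 7.6e-08), and CCL2, which attracts monocytes, by 4.18 ± 0.24 SE (adjusted p = 2.7e-09). IL18, which needs cleavage by caspase 1, fell from 75.8 and 75.2 to 19.8 and 13.6 (adjusted p = 5.9e-04). CXCL8, CXCL6, CXCL2, CXCL12, IL6, CCL2, CCL28 and CXCL16 were named after their values were seen.

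Growth factors exchanged members rather than shifting as a group, with 8 of 28 tested rising (28.6%), 7 falling (25%) and a median of −0.09. IGF2, the fetal insulin-like growth factor, was at 0 and 0.799 in WT and at 4819 and 6332 in KO1 (adjusted p = 6.9e-12). GDF15, a stress-induced member of the TGF-β superfamily, rose from 401 and 446 to 46059 and 40428 (6.67 ± 0.13 SE, adjusted p = 2.2e-14). BDNF rose from 152 and 197 to 711 and 626 (1.94 ± 0.24 SE, adjusted p = 1.0e-05). KO1 was above WT in every library pair for the 3 genes. KITLG, the ligand of KIT, fell from 3366 and 3594 to 29.5 and 46.3 (−6.52 ± 0.18 SE, adjusted p = 1.2e-12). PDGFB stood at 7972 and 4002 in WT and at 286 and 132 in KO1 (−4.86 ± 0.30 SE, adjusted p = 6.9e-09). FGF1 fell from 796 and 441 to 20.2 and 21.4 (adjusted p = 1.4e-08). The 4 libraries alone gave 7 rises and 4 falls.

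In the TGF-β and BMP list 11 of 34 tested genes rose (32.4%) and 7 fell (20.6%), with a median of 0.55, or 0.36 with genes at 3 or less in a group at their bound. With the same total 5 rose and 7 fell. The BMP antagonists NOG and CHRDL1 rose from 36.6 and 23.3 to 751 and 679.9 (4.57 ± 0.23 SE, adjusted p = 8.7e-10) and from 15.7 and 28.6 to 262 and 246 (3.52 ± 0.26 SE, adjusted p = 5.6e-08). The BMP receptor BMPR1B fell from 227 and 158 to 6.46 and 8.62 (−4.49 ± 0.43 SE, adjusted p = 7.9e-07). ID1, a direct target gene of BMP signaling, was at 73.8 and 96.7 in WT and at 0 in both KO1 libraries (adjusted p = 2.0e-08). Antagonists were thus higher, and a receptor and a target gene lower, in both KO1 libraries. TGFBR2, the type II TGF-β receptor, rose by 1.11 ± 0.05 SE (4625 and 4947 in WT, 10168 and 10513 in KO1, adjusted p = 1.7e-10). TGFB1 was not called (0.61 ± 0.17 SE). SMAD7 and ID2 were not called (0.50 and −0.26). FSTL1, a follistatin-like secreted protein, rose by 1.80 ± 0.15 SE (adjusted p = 1.5e-07). TGFBR2, TGFB1, SMAD7 and ID2 were named after their values were seen. With 4 libraries in the fit, 6 rose and 2 fell.

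Of 31 tested WNT pathway genes 6 rose (19.4%) and 8 fell (25.8%), with a median of −0.43, or −0.26 with genes at 3 or less in a group at their bound (4 and 11 with the same total). Among ligands, WNT2 was at 0 in both WT libraries and at 11257 and 10348 in KO1 (adjusted p = 1.1e-12), while WNT7A fell from 810.4 and 812 to 22 and 10.3 (−5.65 ± 0.25 SE, adjusted p = 1.9e-10). The noncanonical ligand WNT5A, named after its value was seen, rose from 969 and 398 to 20323 and 23575 (5.14 ± 0.27 SE, adjusted p = 1.3e-09). ROR1, a receptor of WNT5A, was at 259 and 273 in WT and listed at 0 in both KO1 libraries (adjusted p = 1.5e-05). WNT5A and ROR1 thus went in opposite directions. The change of WNT5A was 5.78 if WT replicate 1 was left out and 4.50 if replicate 2 was. RNF43 and ZNRF3, ubiquitin ligases that remove frizzled receptors from the surface, both fell. RNF43 was at 146 and 194 in WT and at 0 in both KO1 libraries (adjusted p = 1.8e-08), and ZNRF3 at 501 and 535 in WT and at 179 and 209 in KO1 (−1.42 ± 0.13 SE, adjusted p = 6.6e-07). The receptor FZD1 rose by 1.72 ± 0.15 SE (adjusted p = 3.5e-07). AXIN2, LEF1 and TCF7, targets or effectors of canonical WNT signaling named after their values were seen, were not called (0.56, 0.22 and −0.14). DKK3 rose by 1.11 ± 0.06 SE (adjusted p = 9.5e-10), but by 0.70 with the same total and by 0.84 with quantile normalization, under the fold for a call. With 4 libraries in the fit, 4 rose and 5 fell.

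Among 22 tested Notch and Hedgehog genes 5 rose (22.7%) and 6 fell (27.3%), against 12.0% and 13.1% of all genes. Their median was 0.31 (3 rises and 7 falls, with a median of −0.10, with the same total). JAG1, a Notch ligand named after its value was seen, fell from 9613 and 3668 to 86.6 and 95.5 (−6.01 ± 0.29 SE, adjusted p = 4.1e-10). The Notch target HES4 fell by 1.67 ± 0.23 SE (330.3 and 302 in WT, 125 and 77.2 in KO1, adjusted p = 2.9e-05). SHH rose from 4.21 and 8.21 to 113 and 49.9 (adjusted p = 3.1e-04) and its coreceptor BOC from 46.3 and 58.7 to 157 and 163 (adjusted p = 8.6e-05). PTCH1, the SHH receptor and itself a target gene of the pathway, was also named after its value was seen and rose from 46.7 and 93.2 to 431 and 1358 (adjusted p = 1.1e-04). GLI1, another target, was not called (−0.43). The change of JAG1 was −5.32 if WT replicate 1 was left out and −6.71 if replicate 2 was, and that of PTCH1 4.34 if KO1 replicate 1 was left out and 2.69 if replicate 2 was. HES4, SHH, BOC and PTCH1 were not called with the 4 libraries alone, where 0 genes of the list rose in limma (3 at an unadjusted p under 0.05) and 3 fell. The 5 rises were 3 without either KO1 library.

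Of 33 tested semaphorin, plexin, neuropilin, Eph and ephrin genes 5 rose (15.2%) and 6 fell (18.2%), shares near those of all genes, with a median of −0.59 (4 and 10 with the same total). The neuropilins NRP1 and NRP2, coreceptors of semaphorins and VEGF, both rose. NRP1 stood at 492 and 428 in WT and at 1926 and 3349 in KO1 (adjusted p = 2.7e-06), and NRP2 at 5372 and 5656 in WT and at 19725 and 20802 in KO1 (1.88 ± 0.07 SE, adjusted p = 4.0e-11). EFNB2, an ephrin, fell from 1151 and 1037 to 155 and 149 (−2.84 ± 0.09 SE, adjusted p = 5.1e-12). SEMA6A fell by 3.88 ± 0.44 SE and SEMA7A by 2.36 ± 0.23 SE (adjusted p = 4.9e-06 and 9.7e-07). With 4 libraries in the fit, 2 rose and 3 fell. Of 29 tested cadherin, protocadherin and axon guidance genes 10 rose (34.5%) and 5 fell (17.2%), with a median of 0.35 (7 and 6, with a median of 0.00, with the same total). NRCAM, a neuronal adhesion molecule, rose from 208 and 124 to 1183 and 1349.7 (2.96 ± 0.22 SE, adjusted p = 6.0e-08) and CDH8 from 16 and 25.1 to 164 and 234 (3.22 ± 0.34 SE, adjusted p = 2.3e-06). PCDH20 fell from 1162 and 1445 to 66.6 and 139.6 (−3.73 ± 0.22 SE, adjusted p = 4.8e-09). The 5 falls were 3 without KO1 replicate 1, and the 4 libraries alone gave 4 rises and 2 falls.

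Interferon-stimulated genes rose in part. Of 41 tested 16 rose (39.0%) and 2 fell (4.88%), with a median of 0.70. IFI27, a mitochondrial protein induced by type I interferon, rose from 15.8 and 8.3 to 3259.8 and 2065 (7.70 ± 0.60 SE, adjusted p = 8.9e-08). ISG15, a ubiquitin-like modifier, rose from 227 and 249.6 to 1831 and 1643 (2.86 ± 0.16 SE, adjusted p = 1.7e-09), and OASL from 8.88 and 11.8 to 204 and 142 (adjusted p = 1.4e-04). STAT2 and IRF9, partners in the complex that drives these genes, rose by 1.59 ± 0.20 SE and 1.01 ± 0.25 SE (adjusted p = 1.4e-05 and 0.0043). IFIT2 fell from 389 and 426 to 21.5 and 43.3 (−3.69 ± 0.32 SE, adjusted p = 3.0e-07) and IFITM2 from 1896 and 1943 to 649 and 637 (−1.58 ± 0.09 SE, adjusted p = 2.2e-09). Members of the list thus went in both directions. STAT2 and IRF9 were named after their values were seen. The change of IRF9 was 0.73 without KO1 replicate 2, under the fold for a call. The 16 rises were 10 without WT replicate 2, 10 with the same total (beside 4 falls) and 8 with the 4 libraries alone.

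Of 28 tested antigen presentation and complement genes 9 rose (32.1%) and 3 fell (10.7%), with a median of 0.24 (7 and 5, with a median of −0.17, with the same total). C3, the central complement component, rose from 2747 and 3286 to 113247 and 113316 (5.24 ± 0.13 SE, adjusted p = 3.6e-13). C1R, a protease of the classical pathway, rose from 6.65 and 4.01 to 265 and 215 (adjusted p = 8.1e-04). CD55, which protects host cells from complement, rose from 960.1 and 837 to 6969.9 and 7836 (3.04 ± 0.11 SE, adjusted p = 1.1e-11). CFI, the protease that inactivates C3b, fell from 1836 and 1764 to 346 and 272 (−2.55 ± 0.16 SE, adjusted p = 9.7e-09). The 4 genes were separated between groups by more than the spread of duplicates. HLA-C rose by 1.13 ± 0.10 SE (adjusted p = 3.2e-07), and by 0.73 with the same total and 0.82 with quantile normalization, which is under the fold for a call. HLA-B, named after its value was seen, was not called (0.38). In the fit of the 4 libraries 6 rose and 1 fell.

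Cell cycle genes had the highest share of falls among the lists. Of 46 tested, 33 fell (71.7%, against 13.1% of all genes) and 1 rose, or 2 without KO1 replicate 1, with a median of −2.70. Windows of 60 bases from the promoters of 4 of the genes that fell are shown (RefSeq, GRCh38.p14, strand of the gene), with CCAAT boxes and the letters TTTGAA, a form of the cell cycle homology region, in capitals.
CDC20 (chr1:43358871-43358930, plus): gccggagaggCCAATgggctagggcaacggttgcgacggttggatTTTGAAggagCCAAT
CDK1 (chr10:60778143-60778202, plus): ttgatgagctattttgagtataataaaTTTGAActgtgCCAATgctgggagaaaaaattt
CCNB2 (chr15:59105063-59105122, plus): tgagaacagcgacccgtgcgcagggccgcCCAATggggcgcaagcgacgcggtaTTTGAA
PLK1 (chr16:23678806-23678865, plus): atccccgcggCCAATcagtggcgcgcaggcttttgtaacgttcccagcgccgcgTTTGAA

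CCAAT, searched on both strands over 250 bases, was in 33% of all promoters, in 19 of the 26 fallen cell cycle genes with a promoter in the table (73.1%) and in 4 of 9 that were not called (44.4%). TTTGAA was in 13.6% of all promoters, in 9 of those 26 (34.6%) and in 1 of 9 (11.1%). Both motifs were chosen after the values were seen. CDC20, the activator of the anaphase-promoting complex, was at 227 and 304 in WT and listed at 0 in both KO1 libraries (adjusted p = 3.1e-09). CDK1, the mitotic kinase, fell from 1748 and 2153 to 226 and 153 (−3.38 ± 0.15 SE, adjusted p = 2.4e-10), and its cyclin CCNB1 from 2712 and 3033 to 204 and 265 (−3.62 ± 0.17 SE, adjusted p = 2.3e-10). Neither gene overlapped between groups. CENPE, a kinetochore motor, fell from 325 and 288 to 16.1 and 24.8 (−3.87 ± 0.23 SE, adjusted p = 3.9e-09). NUSAP1, a spindle protein, fell from 1065 and 1896 to 106 and 79 (−3.94 ± 0.28 SE, adjusted p = 3.0e-08), and CENPA, the centromeric histone, was at 134 and 64.2 in WT and at 0 in KO1 (adjusted p = 1.0e-06). MCM7, a subunit of the replicative helicase, fell by 1.44 ± 0.11 SE (adjusted p = 8.1e-08). FOXM1, a transcription factor of mitotic genes, fell by 3.17 ± 0.17 SE (adjusted p = 1.7e-09). CCND1, cyclin D1 of G1 phase, was the 1 gene that rose, from 6803 and 3852 to 14380.0 and 13694 (1.45 ± 0.16 SE, adjusted p = 4.2e-06), though it was not called with the 4 libraries alone, where in limma 0 rose (2 at an unadjusted p under 0.05) and 23 fell. Its partner CDK6 fell by 1.57 ± 0.11 SE (adjusted p = 2.1e-08). CCNB2 and PLK1 fell with log2 changes that depended on a KO1 library, −1.34 and −4.95 without KO1 replicate 1 and −4.07 and −2.63 without KO1 replicate 2, and neither was called with the 4 libraries alone. CDK1, CCNB1, CCNB2, PLK1, MCM7, FOXM1 and CDK6 were named after their values were seen.

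Of 33 tested CDK inhibitor and damage response genes 8 rose (24.2%) and 5 fell (15.2%), with a median of 0.25 (6 and 8, with a median of −0.16, with the same total). CDKN1C, the inhibitor p57, rose from 160.2 and 151 to 769 and 525 (2.02 ± 0.29 SE, adjusted p = 5.7e-05). The death receptor FAS rose from 487 and 488 to 3038 and 2495 (2.50 ± 0.12 SE, adjusted p = 3.5e-10) and RRM2B, a ribonucleotide reductase subunit of the damage response, by 1.85 ± 0.14 SE (adjusted p = 6.1e-08). LMNB1, a nuclear lamin that is low in senescent cells, fell from 585 and 638 to 40.1 and 74.2 (−3.46 ± 0.42 SE, adjusted p = 1.0e-05). CDKN1A and CDKN2A, the inhibitors p21 and p16, were higher with adjusted p = 6.5e-05 and 0.0103 but under the fold for a call (0.60 ± 0.09 SE and 0.64 ± 0.18 SE), and were named after their values were seen. Without KO1 replicate 2 the falls were 3 in place of 5, as they were with the 4 libraries alone.

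Genes of sterol synthesis and uptake fell together. Of 32 tested 20 fell (62.5%) and 1 rose, with a median of −1.75. HMGCS1, the first committed step of the mevalonate pathway, stood at 6139.6 and 5903 in WT and at 633 and 668 in KO1 (−3.21 ± 0.08 SE, adjusted p = 3.3e-13). Mevalonate kinase (MVK), a later enzyme of the pathway, fell from 666 and 823 to 40 and 73.9 (−3.74 ± 0.23 SE, adjusted p = 7.3e-09). Both enzymes were lower in both KO1 libraries. ACAT2, a cytosolic thiolase, fell by 2.67 ± 0.12 SE (adjusted p = 2.6e-10). SREBF2, the factor that drives these genes, fell from 269 and 220.0 to 36.2 and 71.1 (adjusted p = 3.4e-04) but was not called with the 4 libraries alone. ABCG1, a cholesterol exporter, was the 1 rise (0 and 1.27 in WT, 33.1 and 23.5 in KO1, adjusted p = 2.3e-04). SREBF1, the relative that acts on fatty acid genes, was not called (−0.24). ABCG1 and SREBF1 were named after their values were seen. The 4 libraries alone gave 13 falls and 1 rise.

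Of 35 tested glycolysis and hypoxia genes 11 rose (31.4%) and 0 fell in limma, with a median of 0.74. At an unadjusted p under 0.05, 1 gene was lower, while 10 rose and 4 fell with the same total, and 7 rose and 1 fell with the 4 libraries alone. CA12, a carbonic anhydrase of renal carcinoma, rose from 18.9 and 9.06 to 8084 and 8348 (9.18 ± 0.31 SE, adjusted p = 8.3e-12). SLC16A1, the lactate and pyruvate carrier MCT1, rose from 2431 and 2244 to 10807 and 11386 (2.25 ± 0.06 SE, adjusted p = 3.6e-13). ADM, the peptide adrenomedullin, rose from 9.4 and 11.2 to 272 and 436 (adjusted p = 6.3e-06). The KO1 libraries were all above the WT libraries for these genes. HIF1A, the hypoxia factor, rose by 1.57 ± 0.12 SE (2812 and 2288 in WT, 7201 and 7868 in KO1, adjusted p = 8.9e-08). The glycolytic enzymes HK2, PGK1, LDHA and PKM were not called (−0.11, 0.26, 0.74 and 0.55). PGAM1, another glycolytic enzyme, rose from 43.8 and 26.6 to 153 and 209 (2.36 ± 0.39 SE, adjusted p = 2.0e-04), though not with the 4 libraries alone. GAPDH stood at 8414 and 1441 in WT and at 3965 and 3510.0 in KO1 and was not called. HK2, PGK1, LDHA, PKM, HIF1A and GAPDH were named after their values were seen. In nuclear-encoded mitochondrial and fatty acid oxidation genes 5 of 38 fell (13.2%) and 1 rose (2.63%), the falls at the share of all genes, with a median of −0.33 (1 rise and 9 falls, with a median of −0.73, with the same total). The 1 rise was 2 without WT replicate 2 or KO1 replicate 1. PPARA, the nuclear receptor that induces fatty acid oxidation, rose from 311 and 313 to 1194 and 1352 (2.02 ± 0.17 SE, adjusted p = 1.6e-07). IDH2 and FH, enzymes of the citric acid cycle, fell by 1.76 ± 0.07 SE and 1.33 ± 0.10 SE (adjusted p = 6.1e-11 and 8.9e-08). PPARG was at 12.8 and 20.8 in WT and at 0 in both KO1 libraries (adjusted p = 0.00579).

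The 13 genes of the mitochondrial genome had a median log2 change of 1.07, while medians of the other chromosomes, over genes with a mean of at least 50, lay between −0.18 and 0.14. Of these 7 rose, all of them subunits of complex I or complex III. MT-CYB stood at 51391 and 51427 in WT and at 144132 and 152072 in KO1 (1.53 ± 0.05 SE, adjusted p = 4.6e-12). MT-ND4 stood at 125581 and 132348 in WT and at 316871 and 337288 in KO1 (1.34 ± 0.06 SE, adjusted p = 1.5e-10). In normalized counts both KO1 libraries were more than 2 times above both WT libraries. MT-ND1, MT-ND2, MT-ND3, MT-ND4L and MT-ND5 rose by 1.07 to 1.45. With the same total for every library changes of abundant genes were lower, as for DCN (8.85 in place of 9.26). A shift of that size would leave MT-ND1, MT-ND2, MT-ND3, MT-ND4 and MT-ND5 under the fold for a call. The complex IV genes MT-CO1, MT-CO2 and MT-CO3 had changes of 0.22, 0.24 and −0.02, the ATP synthase genes MT-ATP6 and MT-ATP8 changes of 0.61 and 0.56, and MT-ND6, the one gene read from the other strand, −0.62. None of these 6 was called. In KO2 the median was 0.24, and the difference KO1 minus KO2 was called for MT-CYB (1.11), MT-ND4L (1.07) and MT-ND4 (1.03). The share of all normalized counts from these genes was 8.28% and 8.65% in WT, 9.79% and 10.6% in KO1 and 8.02% and 8.12% in KO2. MT-ND4L and MT-ND4 overlap, as do MT-ATP8 and MT-ATP6, so reads in the overlaps cannot be told apart.

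**Figure D3:**
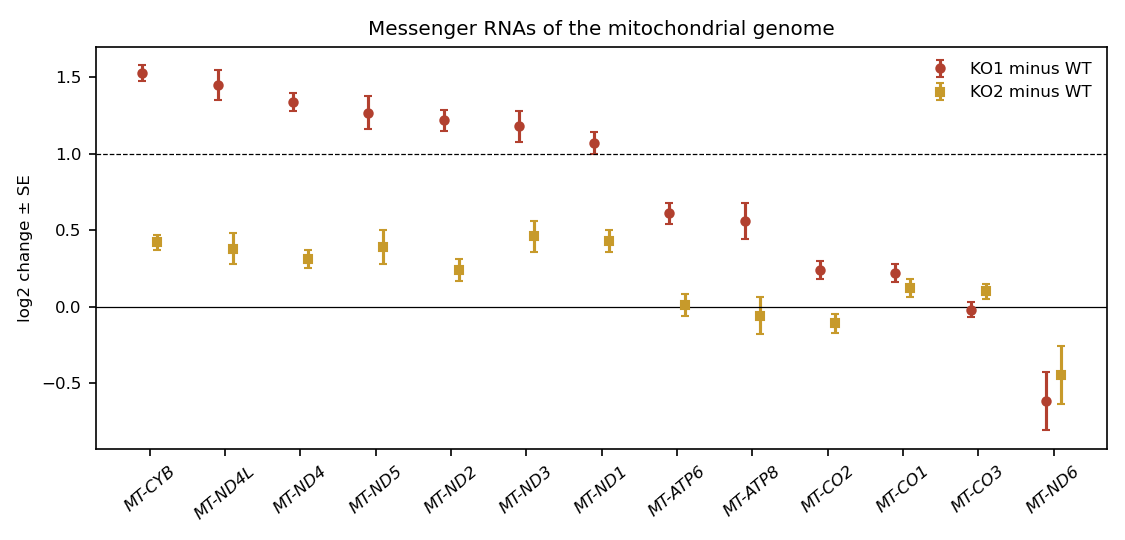
Log2 change from WT of the 13 genes of the mitochondrial genome in KO1 and in KO2, ordered by the change in KO1, with bars of 1 SE and a dashed line at a log2 change of 1. In KO1 the genes of complexes I and III apart from MT-ND6 lie between 1.07 and 1.53, and the genes of complex IV near 0.

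A list of H3K36 methylation factors held writers, erasers and readers of the mark, and also DNMT1, which is none of these. Of 39 tested members 2 rose (5.13%) and 4 fell (10.3%), shares below those of all genes. Their median was −0.12 (0 rises and 10 falls with the same total). DNMT1, the maintenance DNA methyltransferase, is counted among the 4 falls. It fell from 1864 and 1882 to 725 and 618 (−1.48 ± 0.15 SE, adjusted p = 2.1e-06). NSD2, which dimethylates H3K36, fell by 1.47 ± 0.15 SE (1229 and 1593 in WT, 498 and 508 in KO1, adjusted p = 2.2e-06), and NSD1 was not called (0.26). PHF19, a reader of H3K36me3 in the polycomb complex PRC2, fell by 1.91 ± 0.30 SE (adjusted p = 1.1e-04). The 2 rises were 0 without WT replicate 1 or KO1 replicate 2, 1 without KO1 replicate 1 and 0 in the limma fit of the 4 libraries alone (1 at an unadjusted p under 0.05). The 4 falls were 7 without KO1 replicate 1. Of 27 polycomb genes 4 rose (14.8%) and 2 fell (7.41%), against 12.0% and 13.1% of all genes. With the same total 1 rose and 4 fell. EZH2, the methyltransferase of PRC2, fell from 876 and 1014 to 329 and 364 (−1.44 ± 0.12 SE, adjusted p = 1.2e-07). The 4 polycomb rises were 0 without WT replicate 2 and 1 without KO1 replicate 2, and 0 in the limma fit of the 4 libraries alone (2 at an unadjusted p under 0.05). The 2 falls were 1 without WT replicate 1. NSD1 was named after its value was seen.

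Of 28 HOX genes 4 rose (14.3%) and 2 fell (7.14%), against 12.0% and 13.1% of all genes. Their median was 0.08 (2 rises and 5 falls, with a median of −0.33, with the same total). HOXB2 rose from 518 and 407 to 1244 and 1230.3 (1.43 ± 0.13 SE, adjusted p = 3.4e-07) and HOXA4 fell from 359 and 299 to 130.4 and 109 (−1.45 ± 0.19 SE, adjusted p = 1.6e-05). HOXD10 rose by 1.29 ± 0.10 SE (adjusted p = 1.4e-07), and by 0.89 with the same total, under the fold. The 2 falls were 1 without WT replicate 2 or KO1 replicate 2. Of 29 cancer-testis genes measured, 23 were below the minimum. DAZL, a germ cell RNA-binding protein, was the 1 gene of the 6 tested that rose, from 0 in both WT libraries to 63.7 and 129.6 (adjusted p = 6.0e-07). Of 42 genes often used as controls 2 rose (4.76%) and 6 fell (14.3%, near the share of all genes), with a median of −0.25 (0 and 10 with the same total). TUBA1B, an alpha tubulin, fell from 60644 and 71685 to 13086 and 11071 (−2.45 ± 0.09 SE, adjusted p = 1.1e-11), and the ribosomal gene RPLP0 by 1.38 ± 0.09 SE (adjusted p = 1.7e-08). The 2 rises were 0 without KO1 replicate 1 and 1 without WT replicate 1 or KO1 replicate 2.

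Apart from the fibroblast markers above, lists of 4 other cell types were checked. Over all genes 12.0% rose and 13.1% fell, and lists with 3 to 6 tested genes are too small to be set against these shares. Of 6 tested endothelial markers KDR, the VEGF receptor, rose from 0.77 and 0 to 123 and 103 (adjusted p = 1.4e-05) and ESAM from 5.63 and 0 to 28.9 and 54.1 (adjusted p = 0.0351). The summed level of the list was 10.6 and 40.7 in WT and 156 and 206 in KO1. Of 3 tested leukocyte markers only CD14 was called (0 and 0 in WT, 2.47 and 11.4 in KO1, adjusted p = 0.00611). Of 3 tested podocyte markers 2 fell, SYNPO by 1.85 ± 0.29 SE (adjusted p = 1.1e-04), though not with the 4 libraries alone. Of 4 tested distal tubule markers 2 fell and 1 rose, and SLC12A3, the thiazide-sensitive cotransporter, was at 64.9 and 38.9 in WT and at 0 in both KO1 libraries (adjusted p = 4.9e-05). ESAM and CD14 were not called with the 4 libraries alone (adjusted p = 0.115 and 0.104) and were named after their values were seen.

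The clones KO1 and KO2 were made with the same guide, and their difference was tested as a contrast of the same fit. Of 14585 genes 361 were higher in KO1 than in KO2 (2.48%) and 655 lower (4.49%). With the KO1 and KO2 libraries alone 0 were higher and 1 was lower in limma, against 1280 at an unadjusted p under 0.05 and past the fold, so its calls rest on the spread estimated over all 22 libraries. Without KO1 replicate 1 the counts were 535 and 1210, and without KO2 replicate 2 they were 251 and 391. It shares the KO1 libraries with KO1 against WT, and 707 genes were called in both, the set from which the differences below were chosen. IL13RA2, a decoy cytokine receptor, was at 0 in the WT and KO2 libraries and at 95.2 and 106 in KO1 (adjusted p of KO1 against KO2 = 6.5e-04). SERPINB2, described above, was also at 0 in both KO2 libraries (adjusted p = 2.6e-05). These 2 genes were above 0 in the KO1 libraries only, among WT, KO1 and KO2. CP, the ferroxidase ceruloplasmin, stood at 5.03 and 1.41 in WT, at 734 and 1045 in KO1 and at 21.2 and 25.7 in KO2 (KO1 minus KO2 5.17, adjusted p = 0.00109).

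The genes named for lower levels in KO1 were listed at 0 in KO1 and detected in KO2. ITGA6 stood at 331 and 342 in KO2 (adjusted p of KO1 against KO2 = 1.9e-13), below both WT libraries. ROR1 stood at 242 and 230.1 in KO2 (adjusted p = 9.7e-05), near its WT levels of 259 and 273. CDC20 stood at 71.7 and 101 in KO2 (adjusted p = 3.4e-07), between WT and KO1. RCBTB1, a guanine exchange factor homolog, was at 110.3 and 143 in WT, at 0 in both KO1 libraries and at 211 and 282 in KO2 (adjusted p = 0.00297). For these 4 genes the KO2 libraries lay far from KO1, and for RCBTB1 above WT. The same differences did not pass the adjusted threshold in the fit of the 4 clone libraries, with an adjusted p of 0.0575 for each of the 7 genes.

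Some genes with large changes in KO1, chosen after their values were seen, are given here with their KO2 levels. CXCL1 stood at 73071 and 58364 in KO2 and C3 at 44554 and 41316, both between WT and KO1. PDPN and THY1 were higher in KO2 (4942 and 4447, and 1136 and 1135) than in KO1. SLC7A2 stood at 34089 and 32088 in KO2 and TGM2 at 14082 and 11756, close to the KO1 levels. COL6A3 was at 6441 and 6274 in KO2, against 90.4 and 98.6 in KO1 (KO1 minus KO2 −6.06). CA12 was at 814 and 569 in KO2, against 8084 and 8348 in KO1 (3.59). The comparisons of the clones with WT share the WT libraries, so no overlap between them is given.

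**Figure D4:**
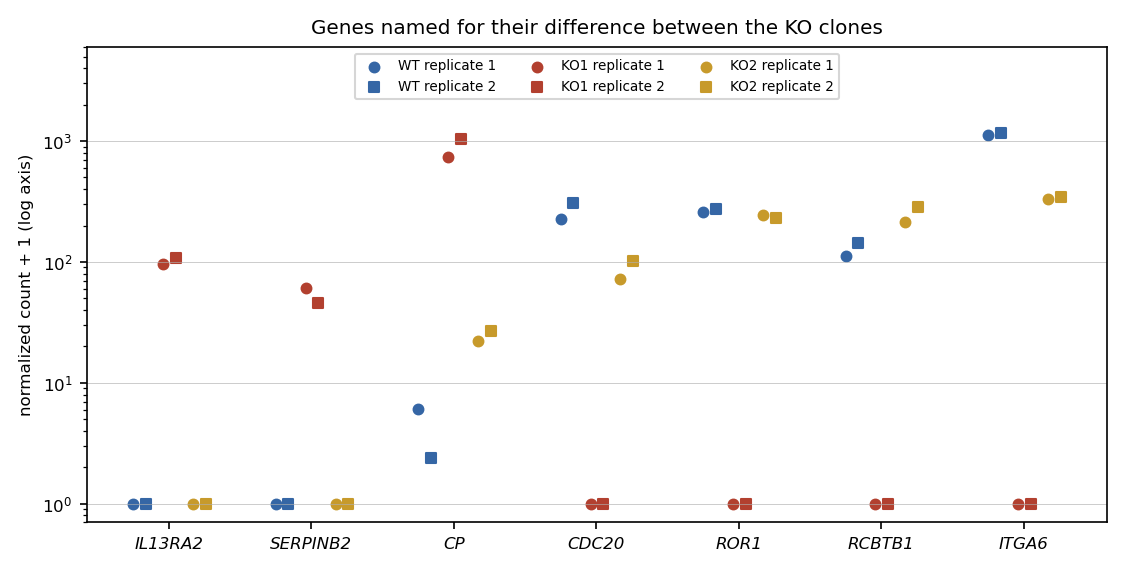
Normalized count + 1 on a log axis in each WT, KO1 and KO2 library for the 7 genes named for their difference between the clones, circles for replicate 1 and squares for replicate 2. IL13RA2 and SERPINB2 are at 0 (drawn at 1) in WT and KO2, and ITGA6, ROR1, CDC20 and RCBTB1 are at 0 in KO1.

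By gene structure, tested genes were divided into 5 bins of equal size. By gene length the median log2 change of the bins lay between −0.09 and 0.08, the share called higher was 12.6% in the shortest bin and 14.8% in the longest, and the share called lower 12% and 15%. By transcript GC content the median went from −0.12 in the lowest bin to 0.14 in the highest, the share called higher from 10.1% to 13.8% and the share called lower from 14.4% to 10.6%. These are descriptions without a test.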

How the data were processed

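RNA-seq libraries (TruSeq Stranded mRNA) of RPTEC were analysed for 11 groups of 2 replicates. Per the labels and methods, transcripts were quantified by Salmon 1.9.0 (GRCh38 cDNA, Ensembl release 94) and DESeq2 1.26.0 was also applied. The authors deposited log2 values for 36859 genes. How they were transformed is not given in the sources used here. All libraries share 11.32 as the lowest value, so they were taken for variance-stabilized values and inverted to normalized counts. Whole reads could not be recovered from them, so no count test was run.

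A gene entered the test if 2 or more libraries reached 10 normalized counts, which left 14585 genes, tested with limma 3.58.1 (R 4.3.3, with a trend) on log2(normalized count + 1), all 22 libraries in 1 fit, with Benjamini-Hochberg adjustment. Calls required adjusted p-values under 0.05 and changes beyond 1 on the log2 scale. Fold changes of low genes are understated on this scale. Symbols came from GENCODE release 44 (33878 genes matched) and promoters from RefSeq.

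The members and gene lists were chosen with earlier results of these data known. Genes named are those with the 6 largest rises and falls, up to 4 per list and direction, and 4 per direction between the clones, that kept their call and changed by less than 1.5 times when each library of the comparison they were named for was left out. Some genes that the rule gave are not reported here. Others are said to have been named after their values were seen. Alternatives were other pseudocounts (0.5 and 5), filters and normalizations, only the libraries compared, a replicate block, the deposited values, and each library left out. The procedure was tested on simulated data. Replicate numbers did not pair the libraries. Python 3.11.15, numpy 2.4.6, pandas 2.3.3 and matplotlib 3.10.9 were used.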

Additional observations from a re-analysis of the deposited data

Results flagged for a closer look

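The 7 genes given for KO1 against KO2 differed between the clones by limma's test of the difference itself, in the fit over all 22 libraries. The log2 differences, KO1 minus KO2, were 6.66 for IL13RA2, 5.72 for SERPINB2 and 5.17 for CP among genes higher in KO1. They were −8.40 for ITGA6, −7.94 for RCBTB1, −7.89 for ROR1 and −6.43 for CDC20 among genes lower in KO1. Except for CP, 1 of the clones was listed at 0 in both libraries, so these differences depend on the pseudocount and give no fold. Each kept its direction and passed the adjusted threshold without each KO1 or KO2 library in turn, and none passed with the 4 clone libraries alone.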

How the results depend on the processing

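The counts of KO1 against WT were 1744 higher and 1908 lower. Without each library in turn they were 1545 to 1810 higher and 1614 to 2209 lower. With the same total for every library they were 1161 and 3006, with only the 4 libraries compared 1002 and 910, and on the deposited log2 values, which compress low genes, 132 and 46. The counts of KO1 against KO2 were 361 higher and 655 lower. Without each library they were 251 to 535 higher and 391 to 1210 lower, the 1210 without KO1 replicate 1 and the 391 without KO2 replicate 2. They were 0 and 1 with only the 4 libraries compared in limma (1280 at an unadjusted p under 0.05), and 20 and 3 on the deposited values. Other pseudocounts (0.5 and 5), quantile normalization, dropping the filter and a filter on the mean level (50) were also run. None of them moved the overall count of rises or of falls in KO1 against WT by over 1.5 times. Of the counts per list, 19 moved by that much, or to or from 0, with the filter on the mean, and 49 did not. Without a filter 7 moved and 61 did not. The interferon rises, for example, were 10 in place of 16 with the filter on the mean. No named gene changed sign under the alternatives run. With the same total, the direction with more calls turned from higher to lower in the TGF-β and BMP, polycomb, HOX, CDK inhibitor, proteoglycan, collagen, growth factor and proximal tubule lists, and on the deposited values KO1 against KO2 had more higher than lower calls. List medians turned from above to below 0 with the same total for proteoglycans (0.08 to −0.19), matrix proteases (0.21 to −0.05), antigen and complement genes (0.24 to −0.17), CDK inhibitors (0.25 to −0.16), polycomb (0.27 to −0.14), HOX (0.08 to −0.33) and Notch and Hedgehog genes (0.31 to −0.10).

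Replicate numbers are shared only as numbers, since the deviations of WT and KO1 libraries with the same number had a correlation of −0.09, and those of KO1 and KO2 of 0.01. With the replicate block 1742 genes were higher and 1901 lower in KO1 against WT, and 357 and 635 in KO1 against KO2.

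Of 156 named genes 155 were called, 139 of them also with only the 4 libraries compared and 1 fewer with a pseudocount of 5 (HES1). On the deposited log2 values 117 of the named genes lost the call, with the same total 3 did and SETD2 gained it, and with quantile normalization 2 did. With 2 libraries a group, genes at a few normalized counts, and the 189 called genes listed at 0 in both KO1 libraries and 184 in both WT libraries, are the least certain.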
